A study of Arabidopsis thaliana with 18 samples.

Results

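The Aux/IAA and ARF genes of Arabidopsis thaliana were followed as 44 genes named by locus, 29 Aux/IAA genes (IAA1 to IAA20 and IAA26 to IAA34) and 15 ARF genes (ARF1 to ARF11 and ARF16 to ARF19), out of 27444 nuclear protein-coding genes. Each gene took, for each histone mark, the ChIP-seq peak that covered most of its gene body, with at least 150 bp. The members are fixed by locus, and no measured value enters the rule.

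Auxin is read through these 2 families. ARF proteins bind auxin response elements in promoters, and Aux/IAA proteins bind the ARFs and recruit TOPLESS co-repressors. Auxin joins an Aux/IAA protein to a TIR1/AFB receptor through a short degron called domain II, the Aux/IAA protein is degraded, and the ARF is released. Many Aux/IAA genes are themselves induced by auxin, which closes a feedback loop, and in the shoot apex auxin response places and shapes leaves and flowers. H3K27me3 is the mark of Polycomb-repressed chromatin and H3K4me3 a mark of the start of transcribed genes.

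The tissue was apices enriched for the shoot meristem. The plants were 5 weeks old and had grown at 21 °C under short days of 8 h light with 16 h dark. The genotypes were the wild type (WT) and the mutant chr4, also written pkr1, in the gene of the CHD-type remodeller CHR4. The labels name neither the allele nor the accession. The labels list 18 samples, 3 replicates for each genotype and antibody (H3K27me3, H3K4me3 and histone H3). The H3 samples were not analysed here.

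For each peak the deposited tables hold 1 value of a control pool and 1 of a treat pool. A pool joins 3 replicates, so the spread between replicates was out of reach for every difference given here, and sequencing depth is unknown. Which pool is the mutant is not stated in the headers, and every direction is therefore given as treat relative to control. Where 2 values follow a gene's name, the control pool comes first. Total signal and height are scores without a stated unit. A peak was called when the FDR in the authors' deposited table was under 0.05 and total signal differed at least 1.5-fold.

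A few facts of the whole series bear on the values. The median log2 ratio of total signal over all peaks was -0.14 for H3K27me3 and -0.08 for H3K4me3. Genes with an FDR under 0.05 in the authors' deposited table numbered 282 for H3K27me3 and 644 for H3K4me3, while 5% of the genes with a peak would be 339 and 802. Over all peaks the numbers were 874 and 1039, while 5% of the peaks would be 511 and 802. Mitochondrial H3K27me3 peaks had a median log2 ratio of 1.62. CHR4 carried an H3K4me3 peak (25726 in control, 24676 in treat, with heights of 5809 and 4535), which was not called and gave no check of the labels. Of 8 shoot meristem markers, 7 had an H3K27me3 and 5 an H3K4me3 peak. All 4 green leaf markers had an H3K4me3 peak and none an H3K27me3 peak, and of 4 root markers 3 had H3K27me3 and 1 H3K4me3.

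The families carried the marks differently. Of the 29 Aux/IAA genes, 12 (41.4%) had an H3K27me3 peak on the gene body, against 0 of the 15 ARF genes. Among all protein-coding genes 24.7% had one. For H3K4me3 the counts were 15 of 29 Aux/IAA genes (51.7%) and 14 of 15 ARF genes (93.3%), against 58.4% of all genes. The difference between the families was not tested, since the members of a family are related by descent and are no independent draws.

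**Figure D1:**
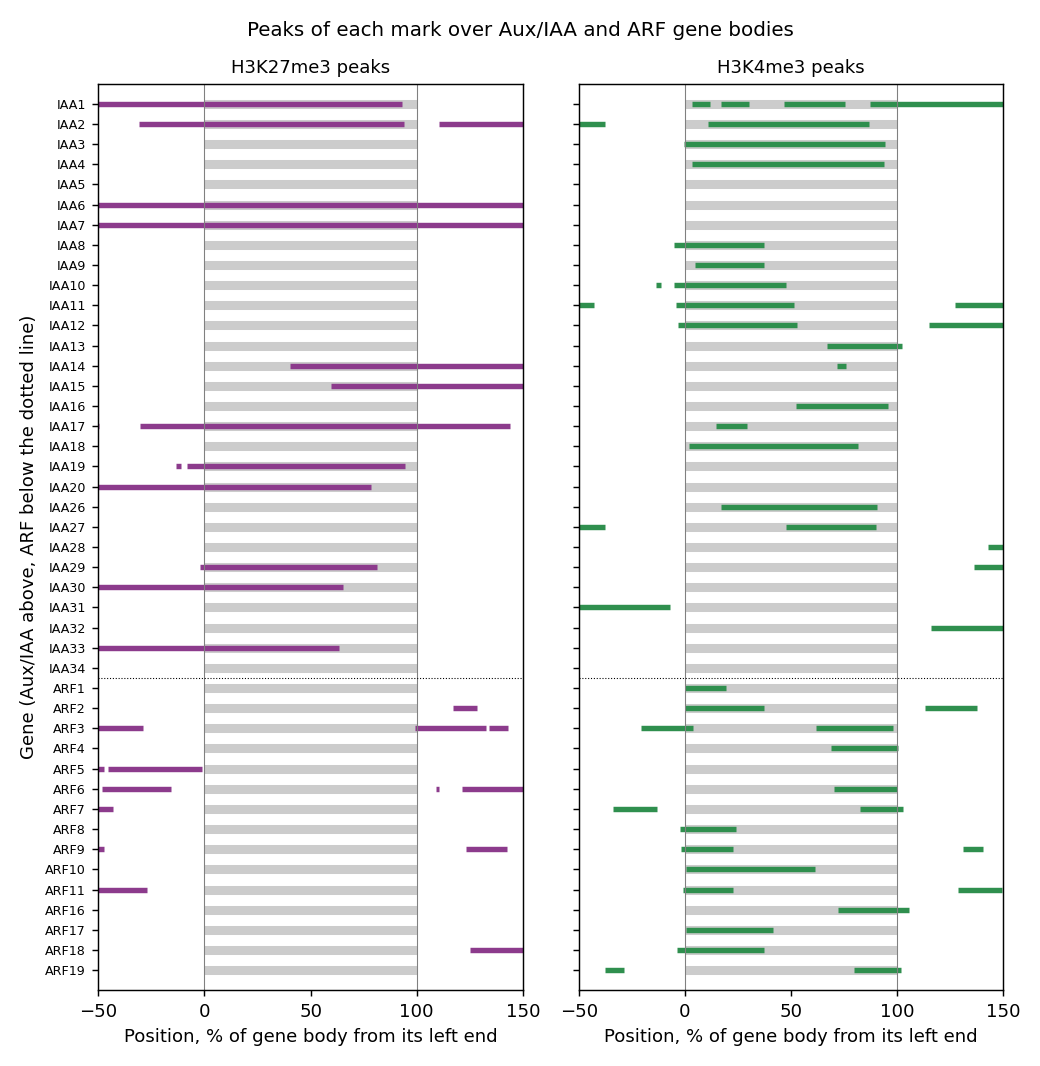
Peaks of H3K27me3 (left) and H3K4me3 (right) over the 44 genes. Each grey bar is a gene body scaled to 100% from its left end on the chromosome (transcription direction is not shown), and coloured bars are deposited peaks, drawn up to 50% beyond either end. H3K27me3 covers 12 Aux/IAA gene bodies and touches ARF3 alone among the ARF genes, by 28 bp, while H3K4me3 lies on 14 ARF genes.

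Within the Aux/IAA family the marks were counted by the presence of the degron. The 23 genes IAA1 to IAA19 and IAA26 to IAA29 encode proteins with domain II, and 9 of them had an H3K27me3 and 15 an H3K4me3 peak. IAA20, IAA30, IAA31, IAA32, IAA33 and IAA34 encode proteins in which domain II is missing or incomplete, so that they escape rapid auxin-dependent degradation. Of these 6 genes, 3 had an H3K27me3 peak (IAA20, IAA30 and IAA33) and 0 had an H3K4me3 peak. H3K4me3 peaks lay 82 bp from IAA31 and 335 bp from IAA32, so that with 500 bp added to each gene the count is 2 of 6. Both peaks lay on other genes, AT3G17590 and AT2G01210, with 0 bp in the members. The split by degron was not tested.

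All 5 ARF activators, the glutamine-rich proteins ARF5, ARF6, ARF7, ARF8 and ARF19, lacked H3K27me3, and 4 of them carried H3K4me3. The exception was ARF5 (MONOPTEROS), which acts in the embryo and in flower initiation. It had no peak of either mark, although an H3K27me3 peak of 2110 bp ended 48 bp from its gene body, with 13889 in control and 8469 in treat. That peak was not called (FDR 0.265 in the authors' deposited table). All 7 repressor ARFs of the ARF1 and ARF2 type, and all 3 targets of the microRNA miR160 (ARF10, ARF16 and ARF17), carried H3K4me3.

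H3K27me3 lay near many ARF genes without covering them. Of the 15 ARF genes, none of which took an H3K27me3 peak by the overlap rule, 9 (60%) had one within 3000 bp. Among the genes without an H3K27me3 peak of their own this held for 8355 of 20671 protein-coding genes (40.4%) and for 5 of 17 Aux/IAA genes (29.4%). These shares were not tested against each other, and they count short and distant peaks as well. ARF8 counts only through a peak of 50 bp, 2896 bp away, with a width of 0 in the control pool. ARF7 counts only through a peak of 600 bp, 2484 bp away. ARF6, which acts with ARF8 in flower maturation, lay between a peak of 1690 bp and a peak of 3690 bp, 811 bp and 1102 bp away. The first had 42741 in control and 34608 in treat, and the second 41760 and 29772. This window was chosen after the values were seen.

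Only 6 members carried neither mark under the rule: IAA5, IAA28, IAA31, IAA32, IAA34 and ARF5, or 13.6% of 44 against 20.2% of all genes. Both marks were on 3 members (6.82%), IAA1, IAA2 and IAA17, against 3.35% of all genes. With 3 genes this share rests on very few members. In the control pool the H3K4me3 peak was 0 bp wide at IAA1 and 100 bp at IAA17, under 150 bp, and 1050 bp at IAA2.

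The H3K27me3 peaks of the 12 Aux/IAA genes had a median length near that of all genes. They measured 1160 to 6500 bp, with a median of 2295 bp against 2370 bp over all genes with a peak. They covered a median of 87.2% of the gene body (92.4% over all genes), and IAA6, IAA7 and IAA17 lay wholly inside one. None of the 12 shared its peak with another member. The IAA6 peak alone also lay on another protein-coding gene by at least 150 bp.

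The members hold 3 pairs of neighbouring Aux/IAA genes with no protein-coding gene between them, and the marks did not follow 1 pattern within them. In the pair IAA1 and IAA14 on chromosome 4, both carried H3K27me3, as did both members of the pair IAA2 and IAA7 on chromosome 3. In the pair IAA3 and IAA17 on chromosome 1, H3K27me3 covered 100% of IAA17 (AXR3, known from auxin-resistant dominant mutants with altered root growth). No H3K27me3 peak lay on IAA3 (SHY2, which restrains auxin response in the root meristem), and H3K4me3 covered 94.2% of it. The H3K27me3 peaks of IAA1 and IAA14 were separate, as were those of IAA2 and IAA7.

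H3K27me3 was compared first between the pools. Of the 12 members with a peak, 1 was called lower, IAA19, and 0 higher. The shares over all genes with an H3K27me3 peak were 2.95% lower and 1.17% higher, so 1 of 12 is a count that says little about the family.

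IAA19 (AT3G15540, also MSG2) encodes an Aux/IAA repressor of ARF7 in tropic bending and hypocotyl growth. Its peak on chromosome 3 (TAIR10, 5263860 to 5265600) covered 94.4% of the gene and no other protein-coding gene. Total signal was 52576 in control and 28224 in treat, 1.86-fold lower, and its FDR was 0.0150 in the authors' deposited table. Height went from 10926 to 5705, 1.92-fold lower. The FDR of height was 0.0274 in the authors' deposited table, and 2.91% of all genes with a peak were called lower by height. The width went from 1730 to 1570 bp. The call was lost at a 2-fold limit, at an FDR under 0.001 and when the deposited FDR was adjusted once more by Benjamini-Hochberg.

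IAA2 (AT3G23030), a rapidly auxin-induced member, came nearest to the threshold. Its signal was 47555 in control and 28848 in treat. These are 1.65-fold apart and did not pass (FDR 0.0617 in the authors' deposited table). IAA20 (AT2G46990), one of the proteins without the degron, had 47639 and 33008, 1.44-fold apart (FDR 0.138 in the authors' deposited table). IAA17 had 40578 and 30587, and IAA1 37173 and 28935. These 4 genes had more signal in the control pool, and none of them passed.

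The other 7 genes differed by 1.31-fold or less. IAA30, another member without the degron, had 27021 in control and 20685 in treat, and IAA15 had 24842 and 19400. IAA7 (AXR2, which limits stem and root growth in its stabilised form) had 28037 and 22984. IAA14 (SLR, which blocks lateral root initiation when stabilised) had 16949 and 14865. IAA33 had 25875 and 23098 and IAA6 29467 and 27618. IAA29, which is induced in shade, had the smallest difference, 14827 and 14605. All 7 were below the control value and none passed.

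**Figure D2:**
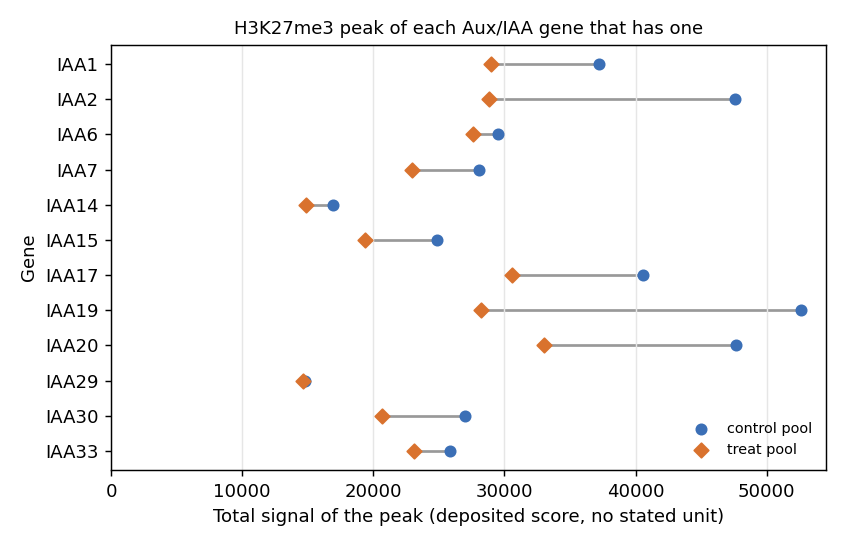
Total H3K27me3 signal (deposited score, no stated unit) of the peak on each of the 12 Aux/IAA genes, circles for the control pool and diamonds for the treat pool, each pool 1 value with no error. Every diamond lies left of its circle, from 52576 against 28224 at IAA19 to 14827 against 14605 at IAA29.

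All 12 H3K27me3 members were thus lower in the treat pool in total signal and in height. For height the share over all genes was not computed, and for total signal 73% of all genes with a peak were lower. Recentred on the median of all peaks, 10 of 12 stayed below 0, and IAA6 and IAA29 turned above it. The median log2 ratio of the 12 was -0.36 (range -0.90 to -0.02), against -0.18 over all genes with a peak, whose middle 50% ran from -0.37 to 0.02. The ratio moved with height over all genes. With these genes ordered by mean peak height into 4 classes of equal size, its median was -0.02 in the lowest class, -0.12 and -0.18 in the next, and -0.23 in the highest. The 12 members fell into the upper 3 classes, with 5, 4 and 3 genes and medians of -0.19, -0.56 and -0.36. The part of height in the members' lower values was not tested.

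**Figure D3:**
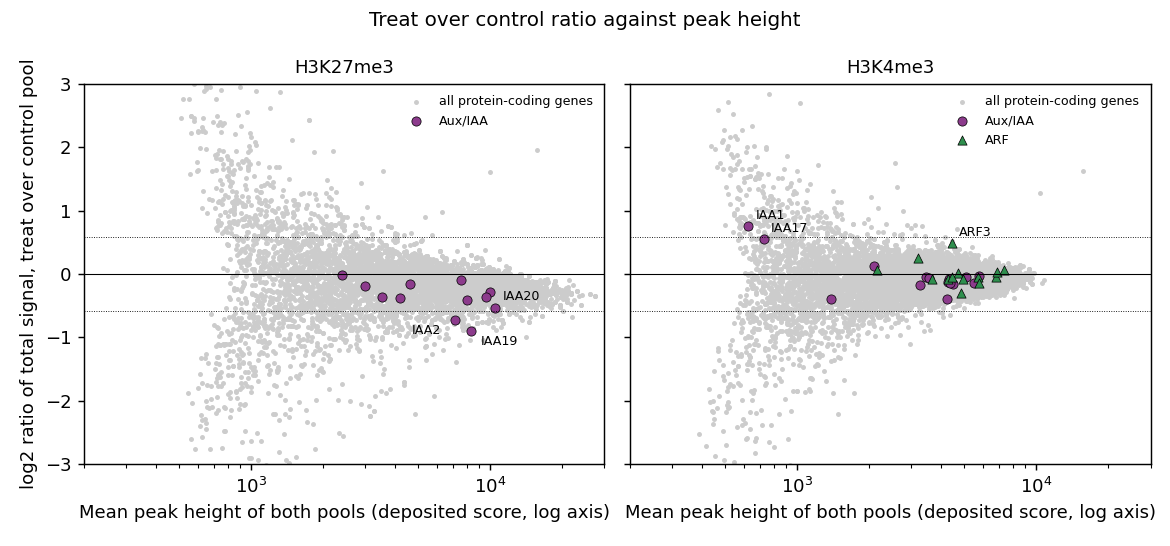
Log2 ratio of total signal (treat over control pool) against the mean peak height of both pools on a log axis, for H3K27me3 (left) and H3K4me3 (right). Grey points are all protein-coding genes with a peak (110 and 47 lie outside the axes), circles Aux/IAA, triangles ARF genes, and dotted lines mark 1.5-fold. The 12 H3K27me3 members lie between -0.90 and -0.02, and the H3K4me3 members lie mostly near 0, with IAA1 and IAA17 among the lowest peaks.

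The tables also hold an FDR for a local loss and a local gain within a peak, whose computation the sources used here do not give. For H3K27me3, 3 of 12 members had a local loss FDR under 0.05 in the authors' deposited table, against 17.2% of all genes with a peak. These were IAA1, IAA2 and IAA19, with 0.0317, 0.0356 and 0.0202 in the authors' deposited table. No member had a local gain FDR under 0.05 for H3K27me3 in the authors' deposited table, against 10% of all genes. The peak was narrower in the treat pool at 10 of 12 members, with a median width of 95.8% of the control width, where 48.7% of all genes had a narrower peak.

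H3K4me3 was compared in the same way. Of the 29 members with a peak 0 were called in either direction, while over all genes with a peak 1.18% passed as higher and 2.35% as lower. The treat pool was below the control pool at 20 of 29 members, near the 70.4% of all genes. The median log2 ratio of the members was -0.05 (range -0.40 to 0.75), against -0.08 over all genes with a peak. With the ratios recentred on all peaks, 13 members were below 0 and 16 above.

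The H3K4me3 peaks sat at 1 end of the ARF genes. The peak of all 14 ARF genes with one reached within 200 bp of exactly 1 end of the gene body and covered a median of 28.8% of it, against 33.8% over all genes. The Aux/IAA genes are shorter, and their 15 peaks covered a median of 47.8%. Over all genes 85.2% of peaks reached exactly 1 end.

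ARF2, a repressor that limits organ size and promotes senescence, had the highest H3K4me3 total signal, 43244 in control and 45079 in treat. ARF10 had 37794 and 38735, and ARF17 36635 and 35334, both targets of miR160. In height the control pool values of ARF2, ARF17 and ARF10 exceeded those of 97.4%, 95.8% and 93.1% of all genes with a peak. ARF1, the closest relative of ARF2, had 27012 and 27185. These 4 genes differed by at most 1.04-fold between the pools.

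The activator ARF7 (NPH4), which drives tropic bending and lateral root formation, had the second lowest ratio among members with at least median signal. It had 33311 in control and 26934 in treat, 1.24-fold apart (FDR 0.0825 in the authors' deposited table). Its partner in lateral root formation ARF19 went the other way, with 17670 and 21060 (FDR 0.198 in the authors' deposited table). The flower maturation pair ARF6 and ARF8 had 31212 and 30305, and 23991 and 23303. None of the activators passed.

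ARF3 (AT2G33860, ETTIN), which shapes the gynoecium and the lower side of lateral organs, had the highest H3K4me3 ratio of the ARF genes. Its peak on chromosome 2 (TAIR10, 14327540 to 14328910) had 20462 in control and 28769 in treat. The treat pool was 1.41-fold above the control pool, which missed the fold limit, while the FDR was 0.0380 in the authors' deposited table. Without a fold limit 1.25% of all genes passed as higher, and ARF3 was the only member to do so. In height the peak went from 3328 to 5548, 1.67-fold higher, and it passed the same thresholds with height, where 0.692% of all genes were called higher.

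ARF3 has another H3K4me3 peak at its left end, of which 145 bp lie in the gene. This peak of 920 bp also lies on AT2G33855, so its signal is not of ARF3 alone. There the treat pool was lower, with 29953 in control and 26621 in treat. Next to the right end of ARF3 H3K27me3 was called lower. A peak of 1260 bp ran from 14328950 to 14330210, with 28 bp in ARF3 and none in another gene of the table. It had 13433 in control and 108 in treat, while its height went from 1781 to 178 and its width from 1250 to 0 bp. A second one of 340 bp, 1282 bp from ARF3, had 11521 and 152, and its width in the treat pool was 0 as well. For both peaks the FDR was below the threshold, 0.00318 and 0.00476 in the authors' deposited table. Other H3K27me3 peaks with a treat width of 0 within 3000 bp of members had 1319 to 5103 in treat. Whether sequence or reads are missing right of ARF3 in the treat pool was not tested, as the H3 samples were not analysed. The H3K27me3 peak of 3440 bp on the other side of ARF3, 1085 bp away, had 54240 and 44596 and was not called. With a 1 bp overlap ARF3 counts as an H3K27me3 member called lower, where 3.21% of all genes were called lower. The peaks outside the overlap rule at ARF3 were chosen after their values were seen.

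**Figure D4:**
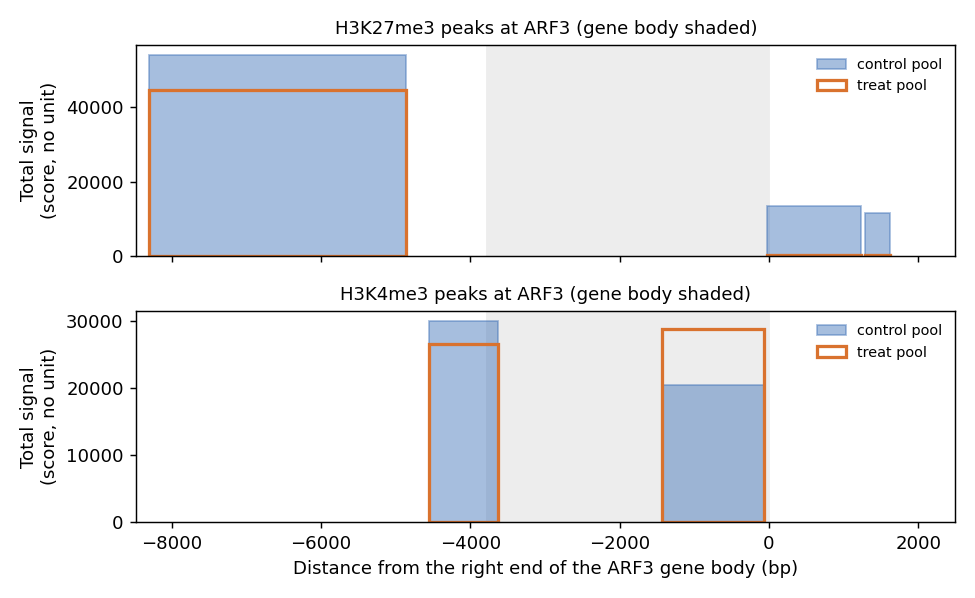
Peaks of H3K27me3 (top) and H3K4me3 (bottom) around ARF3, against the distance in bp from the right end of its gene body (shaded). Filled bars give total signal in the control pool and outlined bars in the treat pool, each pool 1 value. Right of ARF3 the H3K27me3 bars stand at 13433 and 11521 for the control pool and at 108 and 152 for the treat pool. The H3K4me3 peak at that end has 20462 and 28769. Whether reads are missing right of ARF3 in the treat pool was not tested.

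ARF4, which shares the lower-side role of ARF3, had an H3K4me3 signal of 33785 in control and 30656 in treat. ARF9 had 31449 and 29724, ARF18 24068 and 22811, and ARF11 14049 and 14696. ARF16, which acts in root cap formation, had 23332 and 21978. These 5 genes differed by at most 1.10-fold.

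Among the Aux/IAA genes the lowest H3K4me3 ratios were at IAA27 and IAA13. IAA13, a relative of IAA12, had 27525 in control and 20939 in treat, 1.31-fold apart (FDR 0.0619 in the authors' deposited table). IAA27 had 10266 and 7789 (FDR 0.172 in the authors' deposited table). IAA8 had 27498 and 24710, and IAA16 31227 and 28225. IAA12 (BODENLOS, the repressor of ARF5 in the embryo) had 34463 and 33670, and IAA9 31226 and 30287. None passed.

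The remaining Aux/IAA genes with H3K4me3 and no H3K27me3 were IAA3, IAA4, IAA10, IAA11, IAA18 and IAA26. Their differences lay between 1.04-fold and 1.12-fold, each lower in the treat pool. The smallest was at IAA3, with 20129 in control and 19442 in treat, and the largest at IAA10, with 22183 and 19752. The peaks of IAA3 and IAA10 each lay on another protein-coding gene too, by 648 bp and 571 bp, so their signal is not of the member alone. IAA18, which acts in embryonic and lateral root patterning, had 29254 and 27540, and IAA26 24468 and 23374. IAA4 had 26307 and 23858 and IAA11 24149 and 21997.

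**Figure D5:**
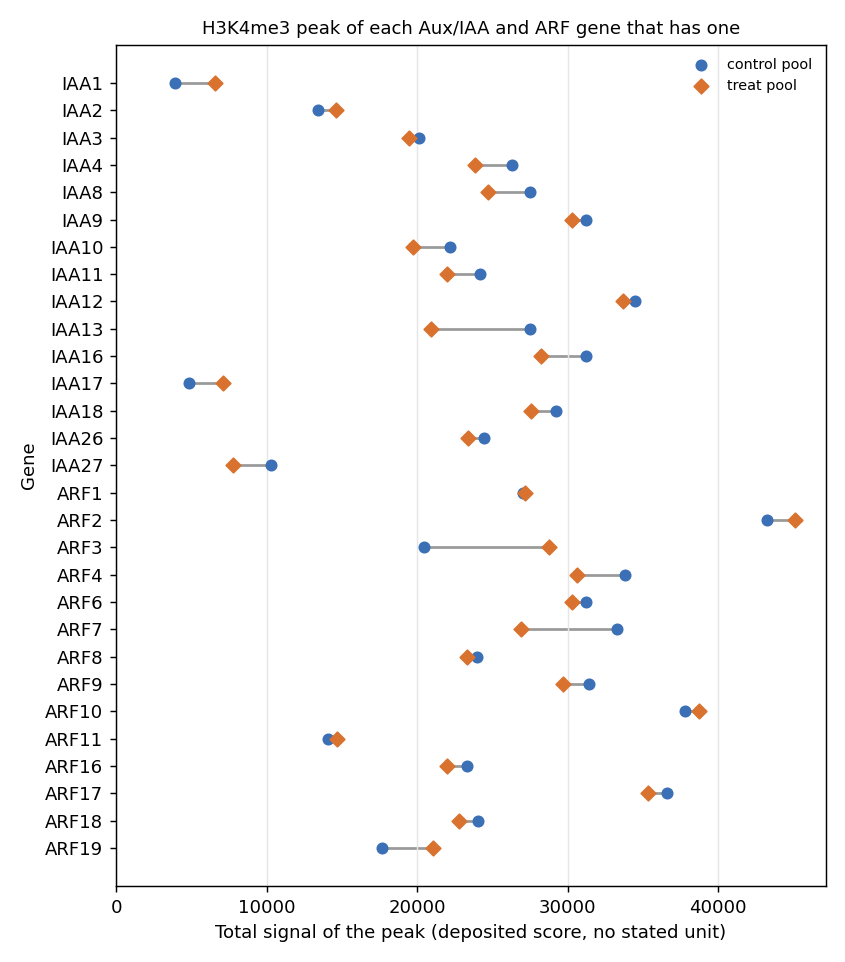
Total H3K4me3 signal (deposited score, no stated unit) of the peak on each of the 29 members with one, circles for the control pool and diamonds for the treat pool, each pool 1 value with no error. Most pairs lie close together, and ARF3 (20462 and 28769) has the widest gap to the right.

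The 3 genes with both marks had little H3K4me3. IAA1 (AT4G14560), an early auxin-induced gene, had 3907 in control and 6561 in treat over a peak of 300 bp (FDR 0.0827 in the authors' deposited table). IAA17 (AT1G04250) had 4877 and 7121 over 370 bp (FDR 0.141 in the authors' deposited table). IAA2 had 13401 and 14636 over 1100 bp. In control pool height only 0.661% of all genes with a peak were lower than IAA1, 1.46% lower than IAA17 and 14.4% lower than IAA2. In the peaks taken by the rule all 3 had more H3K4me3 and less H3K27me3 in the treat pool, and none passed in either mark. The H3K4me3 peak was 0 bp wide in control and 300 bp in treat at IAA1, and 100 and 360 bp at IAA17. A peak listed mainly through its treat width favours a higher treat value, so the H3K4me3 direction of these 2 is no separate result. At IAA1 the H3K4me3 direction turns with 500 bp added to the gene, which takes the stronger peak of 810 bp, with a log2 ratio of -0.40 in place of 0.75. That peak has 133 bp in IAA1 and also lies on another gene, AT4G14570, so its signal is not of IAA1 alone.

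IAA1 and its neighbour IAA14 also carried short H3K4me3 peaks under the 150 bp limit, which lay inside the gene bodies and had a width of 0 in the control pool. At IAA1 a peak of 90 bp had 960 in control and 6766 in treat (FDR 0.00644 in the authors' deposited table). A peak of 140 bp had 2804 and 6719 (FDR 0.0331 in the authors' deposited table). At IAA14 a peak of 110 bp had 2093 and 7115 (FDR 0.0157 in the authors' deposited table). Another IAA1 peak of 810 bp, 133 bp of it in the gene and also on AT4G14570, had 14679 and 11142. The smallest overlap that the rule took was the 300 bp at IAA1. Just outside the rule lay H3K4me3 at IAA14, with 110 bp, and H3K27me3 at ARF3, with 28 bp. With a 1 bp overlap IAA14 counts as an H3K4me3 member called higher, where 1.49% of all genes were.

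All 3 short peaks met the call thresholds as higher, but short peaks in general behaved differently from long ones. Over 697 nuclear H3K4me3 peaks of at most 200 bp, 24.7% were called higher and 39.5% had a width of 0 in the control pool, and 54.7% had more signal in the treat pool. The median log2 ratio was 0.19 for these and -0.08 for longer nuclear peaks. The part of this in the values at IAA1 and IAA14 was not tested.

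Within 3000 bp of the members, and beyond the peaks taken by the rule, lay 36 H3K27me3 and 43 H3K4me3 peaks. For H3K27me3, 3 were called lower and 1 higher, against 3.91% and 4.47% of all nuclear peaks. The 3 were both peaks right of ARF3 and a peak of 60 bp near ARF6, and the higher one was a peak of 40 bp near IAA8. For H3K4me3, 3 were higher, the short ones at IAA1 and IAA14, and 3 lower, near IAA10, IAA16 and ARF19, against 2.44% and 3.52%.

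For the local measures of H3K4me3, 7 of 29 members had a local gain FDR under 0.05 in the authors' deposited table, against 14.8% of all genes, and 7 had a local loss, against 31.1%. ARF3 and ARF8 had the lowest gain values, 0.00652 and 0.00786 in the authors' deposited table. The lowest loss value was 0.00201 at IAA11 in the authors' deposited table, where the width went from 1060 to 860 bp. Outside the members, the H3K4me3 peak of CHR4 had 0.000919 for local gain and 0.00568 for local loss in the authors' deposited table. What these 2 values mean for the labels was not tested.

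The other genes of the auxin pathway were read from a list of 34 genes. All 6 TIR1/AFB receptor genes, all 5 TOPLESS co-repressor genes and all 4 genes of the ubiquitin ligase carried H3K4me3 and no H3K27me3, with 0 called. Of the targets, 5 of 7 GH3 genes, whose enzymes conjugate auxin to amino acids, and 4 of 4 LBD genes carried H3K27me3, where 24.7% of all genes did, with 0 called. GH3.1 had the lowest H3K27me3 ratio among the GH3 genes, with 68820 in control and 48684 in treat, which did not pass. Of the 17 genes of the list with an H3K4me3 peak 1 was called lower, against 2.35% of all genes, and of the 9 with H3K27me3 0 were, against 2.95%. The 1 was GH3.6, whose H3K4me3 peak of 380 bp fell from 7783 to 3132, 2.49-fold lower (FDR 0.0250 in the authors' deposited table). Over all genes in 4 classes of mean H3K4me3 peak height, 9.05% of the lowest class were called lower. In each of the higher classes the share was at most 0.274%. The part of low signal in the call of GH3.6 was not tested. The 8 ARF genes left out of the membership, ARF12 to ARF15 and ARF20 to ARF23, carried neither mark.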

How the data were processed

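Chromatin from shoot apices was immunoprecipitated for H3K27me3, H3K4me3 and H3. Per the submitters' processing notes, Bowtie and TAIR10 were used. The sources used here give no peak caller, no normalization and no account of how the FDR was computed. Per the file headers, the authors deposited, for each of 10228 H3K27me3 and 16032 H3K4me3 peaks, a height and total signal score, a width in bp (other), log2 ratios, log10 p-values (not used) and FDR values, which are of the p-value or q-value kind. Log2 ratios were recomputed from the deposited total signals with a pool listed at 0 set to 1, and none differed from the deposited log2 ratio by over 0.001. Depth is unknown and each pool is 1 value, so no interval could be given.

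Genes, names and neighbours came from a RefSeq gene table of TAIR10.1, in which all 44 members matched, and its coordinates are not printed. With genes shifted by 20000 bp, 41.1% took an H3K4me3 peak, against 58.4% unshifted. For H3K27me3 the shift gave 27.5% against 24.7%, so that mark gives no check of the builds. Peak coordinates are as deposited. Calls used the deposited FDR under 0.05 and 1.5-fold. The members, gene lists and thresholds were chosen with earlier results of these data known. Named genes were members called or with both marks, per mark the 3 with the highest total signal, the 4 highest and 4 lowest log2 ratios among those whose higher pool reached the median of all peaks, and called genes of the pathway list. Other members are given as well, to account for each. Functions were tested on simulated peaks. Alternatives changed the thresholds, the measure, the centring, the filters and the gene link. Python 3.11.15 with pandas 2.3.3 and NumPy 2.4.6 was used.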

Additional observations from a re-analysis of the deposited data

How the results depend on the processing

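No paired analysis was possible because the tables hold 1 value per pool, which also kept replicates from being left out in turn. The count of 1 H3K27me3 member called lower went to 0 at an FDR under 0.001, with the deposited FDR adjusted once more by Benjamini-Hochberg and at a 2-fold limit, and to 2 with a 1 bp overlap or 500 bp added, which bring in ARF3. With 500 bp added, IAA31 and IAA32 gained an H3K4me3 peak and the H3K4me3 log2 ratio of IAA1 turned from 0.75 to -0.40. Each of the peaks taken in this way lies on another gene as well. The count of 0 H3K4me3 members called higher went to 1 without a fold limit and with peak height (ARF3), and with a 1 bp overlap (IAA14). The 29 H3K4me3 members with a peak became 8 when a peak had to cover 50% of the gene. The 3 members with both marks became 0 with either filter on low signal, 1 with 50% of the gene body and 5 with a 1 bp overlap. Recentring on all peaks moved the H3K27me3 median from -0.36 to -0.22 and turned the H3K4me3 median from -0.05 to 0.025. All other counts stayed within 1.5 times under the alternatives run. Leaving out peaks up to 200 bp, chosen after seeing the data, changed none of the counts. Where an alternative changes only a threshold or the overlap, its construction is the cause, and otherwise the cause was not tested.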
